A study of Mus musculus with 9 samples.

Results

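RNA levels of 10 genes of hepatic insulin signalling were followed in the livers of obese diabetic mice. They were the receptor gene Insr, the adaptor genes Irs1 and Irs2, the PI3-kinase subunit genes Pik3r1 and Pik3ca, the kinase genes Pdpk1, Akt2 and Gsk3b, the transcription factor gene Foxo3 and its target Igfbp1. The genes were chosen by name, with earlier results of these data known. All 10 were found among 18193 measured genes, with 30 of 45037 probe sets annotated to 1 of them alone. A further probe set was shared by Foxo3 and Gm38485. The arrays came from male db/db mice (BKS.Cg-Leprdb, 4 arrays), which carry the leptin receptor mutation in every cell, and from male littermate BKS mice (C57BL/KSlepr+/+, 5 arrays), all killed at 14 weeks of age on unrestricted standard chow. By that age db/db mice show obesity, diabetes and fatty liver disease, as the study's design text states. The labels do not say how long the mice had been without food, and whether each numbered sample was a separate mouse is not stated, so a p-value here refers only to the spread among the samples, which may be technical.

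Insulin binds a receptor tyrosine kinase at the hepatocyte surface. The receptor phosphorylates Irs1 and Irs2, these recruit PI3-kinase, its lipid product brings Pdpk1 and Akt2 to the membrane, and Akt2 phosphorylates Gsk3b and the FoxO factors, which then leave the nucleus. Most of this relay works through phosphorylation, which RNA levels do not show. Igfbp1, a secreted protein that binds insulin-like growth factors, is the textbook readout at the level of RNA, since FoxO factors drive it and insulin represses it. Irs2 and G6pc, the catalytic subunit of glucose-6-phosphatase, are repressed by insulin in the same way.

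The stretches just upstream of the start sites of Igfbp1, Irs2, G6pc and Pck1 are shown because FoxO factors act through short AT-rich elements in such regions, and because these 4 insulin-repressed genes are described below. Capitals mark matches, on either strand, to any of 3 motifs. The first motif is CAAAACA, which reads TGTTTTG on the opposite strand. The next is CAAAATA, which reads TATTTTG there. The last is GTAAACA. Sequences are from RefSeq.
Igfbp1 (GRCm38.p6, chr11:7197537-7197786, plus strand): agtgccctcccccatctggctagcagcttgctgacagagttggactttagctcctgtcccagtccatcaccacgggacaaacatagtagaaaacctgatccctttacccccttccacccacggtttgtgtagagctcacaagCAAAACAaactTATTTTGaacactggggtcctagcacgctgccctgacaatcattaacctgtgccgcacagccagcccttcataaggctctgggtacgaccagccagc
Irs2 (GRCm38.p6, chr8:11008930-11009179, minus strand): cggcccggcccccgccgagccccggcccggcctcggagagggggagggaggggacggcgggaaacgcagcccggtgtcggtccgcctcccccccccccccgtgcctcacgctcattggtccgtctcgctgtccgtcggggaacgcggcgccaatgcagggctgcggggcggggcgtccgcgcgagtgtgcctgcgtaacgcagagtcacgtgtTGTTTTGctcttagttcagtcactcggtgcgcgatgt
G6pc (GRCm38.p6, chr11:101367466-101367715, plus strand): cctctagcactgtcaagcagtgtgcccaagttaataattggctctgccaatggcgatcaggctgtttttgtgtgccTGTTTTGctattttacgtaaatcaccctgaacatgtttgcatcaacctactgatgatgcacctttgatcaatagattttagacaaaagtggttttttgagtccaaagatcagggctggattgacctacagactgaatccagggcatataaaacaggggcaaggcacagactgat
Pck1 (GRCm38.p6, chr2:173152823-173153072, plus strand): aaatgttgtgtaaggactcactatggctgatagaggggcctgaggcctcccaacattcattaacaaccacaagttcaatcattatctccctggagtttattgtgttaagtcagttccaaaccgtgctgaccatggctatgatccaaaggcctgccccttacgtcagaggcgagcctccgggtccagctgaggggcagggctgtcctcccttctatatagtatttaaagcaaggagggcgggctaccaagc

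The Igfbp1 stretch held CAAAACA from base -108 to -102 and TATTTTG from base -97 to -91 before the start site. In Irs2 the single match was TGTTTTG at -37 to -31, and in G6pc it was TGTTTTG at -174 to -168. The Pck1 window held none of the 3 motifs, and GTAAACA was in none of the 4 windows. The search covered 250 bases before to 50 after each start. Of the 10 genes, 9 had such a window in the table, and 4 (Irs1, Irs2, Pik3r1 and Igfbp1) had a match in at least 1 of their windows. By window, 4 of 14 had a match. Over all 32851 windows, 6.28% held CAAAACA, 4.36% CAAAATA, 3.65% GTAAACA and 13.3% any of them. A match describes letters and does not show a bound site.

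None of the 10 genes passed the test between db/db and BKS livers (limma, Benjamini-Hochberg adjusted p under 0.05 over all genes), while 5.49% of all genes did. With the 18S block described below the count was also 0, against 8.23% of all genes. Only Pdpk1 had an unadjusted p under 0.05, as had 17.6% of all genes. The db/db and BKS arrays overlapped for each of the 10, while they did not for 9.15% of all genes. The median log2 fold change of the 10 genes was -0.08, against 0.00 over all genes, and the median absolute log2 fold change was 0.21, against 0.29. All values below are levels on the log2(signal + 16) scale after quantile normalization, and each gene is given by its brightest probe set unless another is named.

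**Figure D1:**
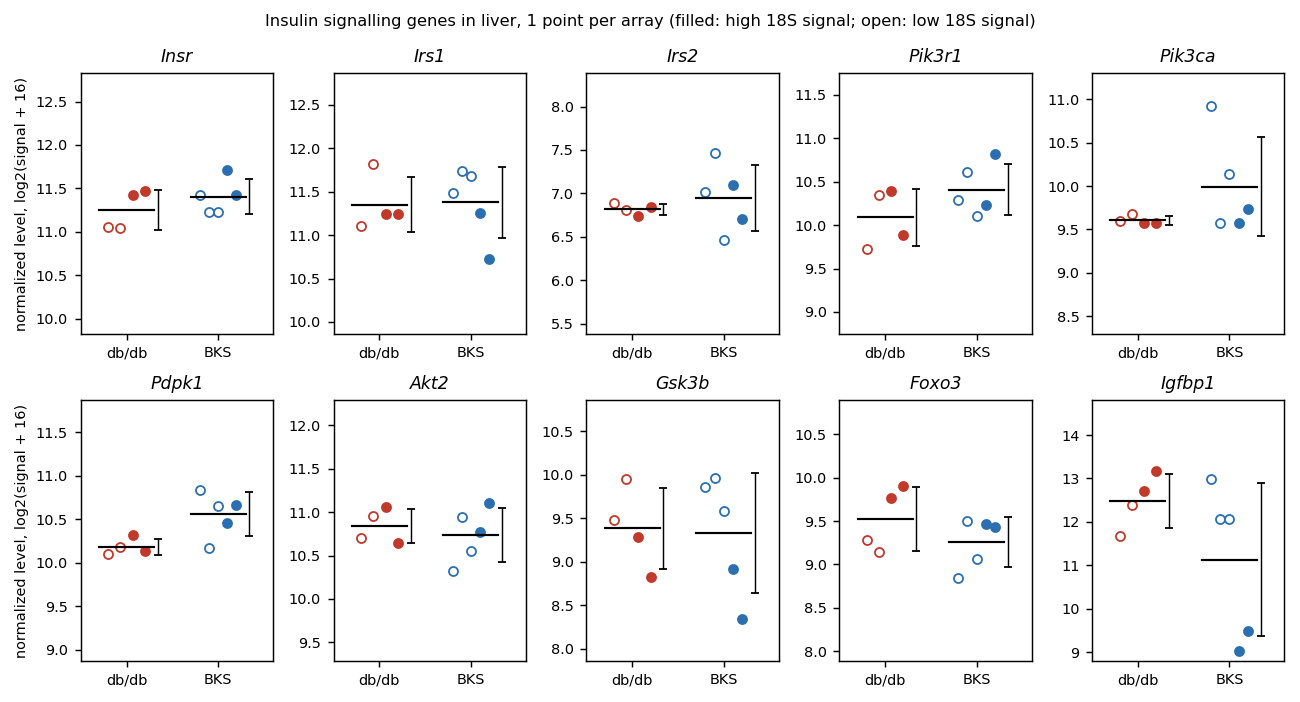
Normalized log2 level of each of the 10 genes on each array, db/db left of BKS, with the group mean as a bar and 1 SD as a whisker. Filled points are arrays with a high and open points arrays with a low 18S control signal. Each panel spans 3 log2 units except that of Igfbp1, which spans 6. The BKS arrays of Igfbp1 split into 3 near 12 to 13 and 2 near 9, and the groups overlap in all 10 panels.

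The arrays differed in a technical property that cut across genotype. On db/db 3, db/db 4, BKS 4 and BKS 5 the 18S ribosomal RNA controls (mean of 3 probe sets) had a signal that ranged from 1114 to 9835. On db/db 1, db/db 2 and BKS 1 to 3 it ranged from 13.9 to 26.8. No batch is given in the labels. Fits with a block for this split were therefore made as well, and differences of the 10 genes are given for the low 18S arrays (2 db/db, 3 BKS) as well as the high 18S arrays (2 db/db, 2 BKS). The median signal per array was 67.4 to 110.8. Precision is limited by the number of arrays. The hepatocyte markers Alb, Apoa1, Ttr, Tat and Cps1 had a summed signal of 143049 to 240777 on db/db arrays and 151024 to 302457 on BKS arrays. Of 30 measured markers of other cells, only Cela1, from the pancreas list, was called, against 5.49% of all genes. With the 18S block the macrophage markers Adgre1 (-0.62, adjusted p = 0.0364) and Cd5l (-0.87, adjusted p = 0.0249) and the bile duct marker Sox9 (-1.59, adjusted p = 0.0268, limma) also fell. Without the block the 3 probe sets of Sox9 ran from -1.51 to 1.06, and the 2 of Lrat from 0.13 to 0.94. The endothelial marker Pecam1 (1.64, adjusted p = 0.0470) and the stellate cell marker Lrat (0.98, adjusted p = 0.0398, limma) rose with the block, where 8.23% of all genes were called. The other markers of these lists did not pass there and differed in sign within each list. Macrophage markers stood at -0.56 (Clec4f), -0.10 (Vsig4), 0.08 (Cd68) and 0.22 (Marco). Endothelial ones stood at -0.38 (Cdh5), 0.01 (Stab2), 0.17 (Kdr) and 0.88 (Lyve1). Stellate cell ones stood at -0.22 (Col1a1), 0.24 (Reln), 0.25 (Acta2) and 1.05 (Des). Bile duct ones stood at -1.10 (Krt7), -0.53 (Krt19) and 0.13 (Epcam). The summed signals were 1813 to 4936 on db/db and 3072 to 8594 on BKS arrays for 6 macrophage markers, 771 to 2113 and 922 to 1881 for 5 endothelial markers, 2555 to 3631 and 1649 to 3628 for 5 stellate cell markers, 220 to 554 and 475 to 723 for 4 bile duct markers, 207 to 524 and 361 to 997 for 4 lymphocyte markers, 58.2 to 167.8 and 25.2 to 121.4 for 2 adipocyte markers, and 1183 to 1479 and 2141 to 4719 for 4 pancreas markers. Their part in the results was not tested, and in whole liver fewer cells of a type and less RNA per cell cannot be told apart. Lepr, the mutated gene, passed on none of its 4 probe sets (log2 fold change -0.87 to 1.17, adjusted p from 0.335 to 0.881), and as the db mutation alters splicing, its level is no check of genotype.

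Insr, which encodes the receptor (chr8:3150922-3279649, GRCm38.p6), varied little between arrays. Its level was 11.06, 11.05, 11.42 and 11.47 on the db/db arrays and 11.42, 11.22, 11.23, 11.72 and 11.42 on the BKS arrays. The groups overlapped, and the log2 fold change was -0.15 (95% confidence interval -0.46 to 0.15, adjusted p = 0.648, limma). Within the low 18S arrays the difference was -0.24, and within the high ones -0.12. The other probe sets, 1450225_at and 1421380_at, stood at -0.66 and 0.27, with intervals from -1.67 to 0.35 and from -0.77 to 1.32.

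Irs1 and Irs2 encode the docking proteins that carry the signal from the receptor. Irs1 (chr1:82233105-82291439) stood at 11.11, 11.81, 11.24 and 11.24 on db/db arrays and at 11.49, 11.74, 11.68, 11.26 and 10.72 on BKS arrays. The db/db values lay inside the BKS range except for db/db 2, just above it, and the log2 fold change was -0.03 (interval -0.47 to 0.41, adjusted p = 0.966, limma). The sign turned between the 18S sets (-0.18 low, 0.25 high). Irs2 (chr8:10984681-11008929) was read by a single probe set, dim enough to be left out by the filter on dim genes. It stood at 6.89, 6.81, 6.74 and 6.84 on db/db arrays and at 7.01, 7.46, 6.46, 7.10 and 6.70 on BKS arrays. The db/db arrays were tightly bunched within the wider BKS range (SD 0.06 against 0.38), and the log2 fold change was -0.13 (interval -0.78 to 0.53, adjusted p = 0.885, limma), with -0.13 and -0.11 inside the low and high 18S sets.

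The genes nearest to Irs2 in profile over the 9 arrays, by the root mean square difference of levels centred on each gene's mean, were Map1lc3a (0.10), Bad (0.13) and Akt1 (0.14). These small distances go with the small spread of Irs2 itself. The arrays share genotype and 18S set, so the likeness is a description.

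Pik3r1 and Pik3ca encode the main regulatory and a catalytic subunit of PI3-kinase, which makes the lipid messenger PIP3. Pik3r1 (chr13:101680761-101768217) was 9.73, 10.35, 10.39 and 9.89 on db/db arrays and 10.29, 10.62, 10.10, 10.23 and 10.82 on BKS arrays. Its log2 fold change was -0.32 (interval -0.73 to 0.08, adjusted p = 0.423, limma), with the same sign in both 18S sets (-0.30 low, -0.38 high). Another of its probe sets, 1451737_at, pointed the other way, with 9.50, 9.36, 9.42 and 8.63 on db/db arrays and 7.78, 9.09, 8.70, 7.25 and 8.12 on BKS arrays. There the log2 fold change was 1.04 (SE 0.34, adjusted p = 0.146 over all probe sets, limma), and with the 18S block it was 1.11 and passed (adjusted p = 0.0329). The groups overlapped through db/db 4, which lay below BKS 2 and BKS 3. The remaining 2, 1425514_at and 1425515_at, designed from the same source sequence as 1451737_at, stood at 0.13 and 0.23.

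Pik3ca (chr3:32397065-32466112) was 9.59, 9.68, 9.57 and 9.58 on db/db arrays and 10.92, 9.58, 10.14, 9.57 and 9.74 on BKS arrays. The db/db arrays lay together at the low end of the BKS range, and BKS 1 stood far above the rest. Its log2 fold change was -0.38 (interval -0.91 to 0.14, adjusted p = 0.467, limma) and -0.15 without BKS 1. The difference was -0.58 in the low 18S arrays, which hold BKS 1, and -0.08 in the high 18S arrays. The other 5 probe sets ran from -0.43 to 0.05, and none passed.

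Pdpk1 (chr17:24073680-24155619), the kinase that activates Akt, came nearest to a difference among the signalling genes. Its level was 10.10, 10.18, 10.32 and 10.14 on db/db arrays and 10.84, 10.17, 10.66, 10.46 and 10.66 on BKS arrays. All db/db arrays lay below 4 of the 5 BKS arrays, and BKS 2 lay among them. The log2 fold change was -0.37 (SE 0.15, interval -0.69 to -0.06, unadjusted p = 0.0243, adjusted p = 0.189, limma). Both 18S sets had the same sign (-0.42 low, -0.33 high), and the other probe set, 1416501_at, stood at -0.37 as well (SE 0.21). In none of the 23 alternatives did it pass, with adjusted p from 0.0672 to 0.548, so the lower level is a value and not a call.

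Akt2 (chr7:27591552-27640826), the main Akt of insulin action in liver, was 10.70, 10.95, 11.05 and 10.64 on db/db arrays and 10.32, 10.95, 10.55, 10.77 and 11.11 on BKS arrays. All db/db values lay within the BKS range, and the log2 fold change was 0.10 (interval -0.26 to 0.46, adjusted p = 0.833, limma). Its sign turned between the 18S sets (0.22 low, -0.09 high). Another probe set, 1455703_at, gave another picture, with 7.58, 7.46, 8.06 and 8.57 on db/db arrays and 6.36, 7.22, 7.15, 6.78 and 7.0 on BKS arrays. There every db/db array lay above every BKS array, with a log2 fold change of 1.01 (SE 0.33, adjusted p = 0.144 over all probe sets, limma) that did not pass. It was 0.61 inside the low and 1.42 inside the high 18S set. The third, 1421324_a_at, stood at 0.31, with BKS 1 far below all other arrays.

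Gsk3b (chr16:38089001-38246084), a kinase that Akt inhibits and that holds glycogen synthase back, had 6 probe sets. The brightest, 1437001_at, was 9.48, 9.96, 9.29 and 8.83 on db/db arrays and 9.86, 9.97, 9.58, 8.91 and 8.34 on BKS arrays, with a log2 fold change of 0.06 (interval -0.65 to 0.76, adjusted p = 0.957, limma). Here too the sign turned between the 18S sets (-0.09 low, 0.43 high). Levels on the high 18S arrays were the lowest of each genotype. With genotype in the fit, the high 18S arrays lay 0.94 below the low ones (SE 0.19, adjusted p = 0.0191, limma), and Gsk3b was the only 1 of the 10 genes called for that split, against 3.5% of all genes. Probe sets 1439931_at and 1439949_at lay 1.83 and 2.12 lower on the high 18S arrays (adjusted p = 0.0101 and 0.00106 over all probe sets, limma). The split was not shared by all 6 probe sets of the gene. High relative to low 18S arrays, 1454958_at stood at 0.33 (SE 0.16, adjusted p = 0.297, limma) and 1434439_at at -0.04 (SE 0.40). Of the 30 probe sets 1 was called higher and 3 were called lower on the high 18S arrays, where 5.32% of all probe sets were called in either direction.

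Probe set 1451020_at of Gsk3b was the only 1 of the 30 that passed between genotypes, against 2.78% of all probe sets (1.58% higher in db/db). With the 18S block 2 of the 30 rose, the other being 1451737_at of Pik3r1, against 4.86% of all probe sets. An unadjusted p under 0.05 was reached by 4 of the 30 and by 13.2% of all. It stood at 8.95, 9.10, 9.09 and 8.41 on db/db arrays and at 7.42, 8.02, 7.77, 8.10 and 7.78 on BKS arrays. Every db/db array lay above every BKS array, as it did for 2 of the 30 probe sets, this one and 1455703_at of Akt2, against 6.53% of all probe sets without overlap (3.49% higher in db/db). The log2 fold change was 1.07 (SE 0.23, interval 0.57 to 1.57, adjusted p = 0.0232 over all probe sets, limma), with 1.29 inside the low and 0.81 inside the high 18S set. The high 18S arrays stood at -0.01 relative to the low ones (SE 0.23). The call was lost in 5 of 9 fits with 1 array left out, namely those without db/db 1, db/db 2, db/db 3, BKS 1 or BKS 3, where the adjusted p ran from 0.0503 to 0.0961, while the log2 fold change kept between 0.99 and 1.21 in all 9. The other 5 probe sets of Gsk3b ran from -0.57 to 0.06.

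**Figure D2:**
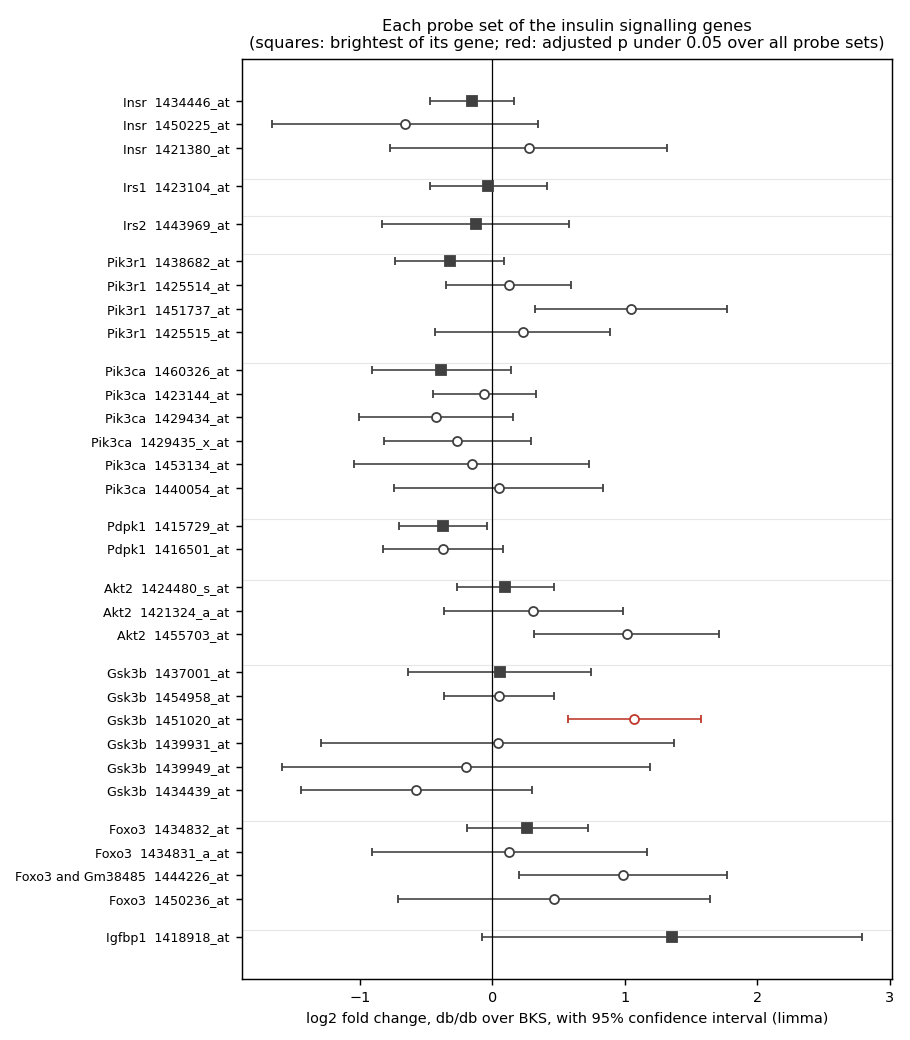
Log2 fold change of db/db over BKS with its 95% confidence interval for each of the 31 probe sets, grouped by gene and ordered by brightness (limma over all probe sets). Squares are the brightest of each gene; the only red point, 1451020_at of Gsk3b at 1.07, passed, and 1451737_at of Pik3r1 and 1455703_at of Akt2 stand near 1 with wider intervals.

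Whether probe sets of a gene differed in their genotype effect was tested over all 16752 further probe sets of genes with several, each minus the brightest of its gene. None of the 20 in these genes passed (limma, adjusted p from 0.355), and only 3 of all 16752 did (0.0179%). Not passing here thus does not show that probe sets of a gene agree. The share of all with an unadjusted p under 0.05 was not counted, and 3 of the 20 had one. These were 1451737_at of Pik3r1, 1.37 above the brightest (SE 0.41), 1451020_at of Gsk3b, 1.02 above (SE 0.41), and 1455703_at of Akt2, 0.91 above (SE 0.33). This test was chosen after the values were seen.

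Foxo3 (chr10:42181845-42276695) encodes a FoxO factor that Akt keeps out of the nucleus. It stood at 9.29, 9.14, 9.77 and 9.90 on db/db arrays and at 8.84, 9.50, 9.06, 9.46 and 9.43 on BKS arrays. The 2 highest values were those of db/db 3 and db/db 4, the others overlapped, and the log2 fold change was 0.26 (interval -0.19 to 0.71, adjusted p = 0.580, limma). Split by set it was 0.08 (low 18S) and 0.39 (high 18S). Its probe set 1434831_a_at lay 1.61 higher on high 18S arrays (adjusted p = 4.56e-04, limma) and at 0.13 between genotypes. A dim one, 1450236_at, pointed the other way, at -1.44 on high relative to low 18S arrays (SE 0.41, adjusted p = 0.0556, limma). It stood at 0.47 between genotypes. The probe set shared with Gm38485, 1444226_at, stood at 0.98 (SE 0.36, adjusted p = 0.225) and passed with the 18S block (0.88, adjusted p = 0.0430, limma), but it cannot be assigned to Foxo3 alone. Foxo1, the FoxO factor best known in liver, was at -0.20 (SE 0.21, adjusted p = 0.695, limma).

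Igfbp1 (chr11:7197787-7202546) had the widest spread of the 10 genes. On the db/db arrays it stood at 11.67, 12.38, 12.71 and 13.16. On the BKS arrays it stood at 12.99, 12.07, 12.06, 9.02 and 9.48, so BKS 4 and BKS 5 lay far below all other 7 arrays, while BKS 1 lay above 3 of the 4 db/db arrays. In the deposited signals the db/db arrays ran from 3288 to 9808, BKS 1 to 3 from 4103 to 7777, and BKS 4 and BKS 5 stood at 460 and 679. Over all arrays the means were 12.48 ± 0.63 in db/db and 11.13 ± 1.76 in BKS (SD, n = 4 and 5), and the log2 fold change of 1.36 did not pass (SE 0.69, interval -0.13 to 2.84, adjusted p = 0.339, limma). With 1 array left out it ran from 0.82 without BKS 4 to 1.83 without BKS 1.

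Both low BKS arrays are high 18S arrays, and the genotype difference depended on the set. It was -0.35 in the low 18S arrays, where the db/db mean was 12.03 and the BKS mean 12.38, and 3.69 in the high 18S arrays, where the db/db mean was 12.94 and the BKS mean 9.25. The change in the difference from low to high 18S arrays was 4.04 (SE 0.43, interval 3.09 to 4.98, adjusted p = 0.00448 over all genes, limma interaction, chosen after the values were seen). Only 6 genes, or 0.033%, passed that test, and the other 9 signalling genes had none with an unadjusted p under 0.05. Without BKS 4 the change was 3.77 and missed the threshold (adjusted p = 0.0659), which leaves 1 BKS array in the high set, assumed to vary like the others. With each of the other arrays left out it passed. Fitted alone, the high 18S arrays gave 3.87 (SE 0.22, adjusted p = 2.19e-04, limma, 2 arrays in each group) and the low ones -0.33 (SE 0.29, adjusted p = 0.641). With 2 BKS arrays in the high set, what sets these 2 livers or arrays apart from the other BKS samples cannot be told apart from the 18S signal.

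**Figure D3:**
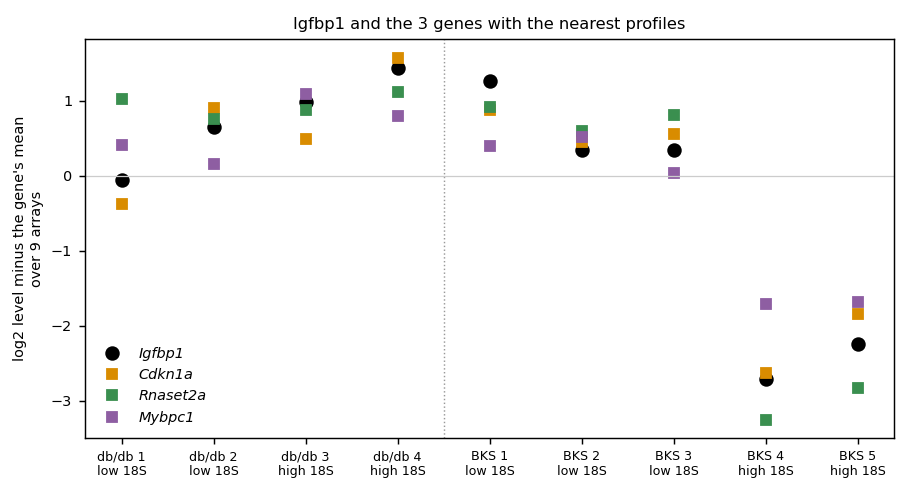
Log2 level of Igfbp1 and of the 3 genes nearest to it, each minus its own mean over the 9 arrays, with db/db arrays left of BKS arrays and the 18S set named under each. All 4 genes have their lowest levels on BKS 4 and BKS 5.

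The 3 genes nearest to Igfbp1 in profile over the 9 arrays were Cdkn1a, the cell cycle inhibitor p21 (root mean square difference 0.30), the ribonuclease gene Rnaset2a (0.51) and Mybpc1, a myosin binding protein (0.59). Cdkn1a was 8.52, 9.80, 9.39 and 10.47 on db/db arrays and 9.78, 9.34, 9.45, 6.27 and 7.06 on BKS arrays. It thus shared the low level on BKS 4 and BKS 5, and its interaction was 3.63 (SE 0.61, adjusted p = 0.125, limma). Its second probe set did not share it, with 5.37 on BKS 4 but 7.30 on BKS 5 and 5.38 on db/db 3. The other 2 probe sets of Mybpc1 did not share it either, with differences of -0.64 and -0.26 inside the high 18S set, against 2.63 for the one nearest to Igfbp1. All 3 were dim. The one nearest to Igfbp1 stood at 4.39 and 4.42 on BKS 4 and BKS 5, near the bottom of the scale, and at 6.13 to 7.18 elsewhere. Rnaset2a stood at 6.31 and 6.73 on BKS 4 and BKS 5, against 10.15 to 10.68 elsewhere, and its interaction passed (3.92, SE 0.30, adjusted p = 1.86e-04, limma). These genes were found by their likeness, so their shared pattern is a description.

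The wider pathway was read from 9 lists drawn from textbook knowledge. Of 102 measured genes outside the 10, 11 rose and 4 fell, against 2.89% and 2.6% of all genes. The lists were chosen with earlier results of these data known, so the counts describe the genes and show nothing particular to insulin signalling. Among receptor partners and adaptors 0 of 11 passed (limma, 2 at an unadjusted p under 0.05), and the smallest p was that of Cbl, a ubiquitin ligase (-0.50, adjusted p = 0.173). Among other PI3-kinase subunits and PIP3 phosphatases 0 of 10 passed (1 at an unadjusted p under 0.05, Pik3cb, 0.67, adjusted p = 0.261). In the Ras and MAP kinase arm 0 of 10 passed (3 at an unadjusted p under 0.05), with Nras lowest in p (-0.52, adjusted p = 0.0921). Its most variable probe set stood at 0.08, and Nras passed in 1 of 23 alternatives, the filter on dim genes (adjusted p = 0.0423, limma). Dusp6, a phosphatase of MAP kinases, rose with the 18S block (0.89, adjusted p = 0.0183, limma).

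Among 11 measured receptor inhibitors and genes of insulin clearance, Socs3 was the only one called. It encodes a cytokine-induced protein that blocks the receptor and its adaptors. Its level was 8.99, 8.11, 6.93 and 7.93 on db/db arrays and 10.62, 10.46, 9.21, 10.49 and 9.70 on BKS arrays. All db/db arrays lay below all BKS arrays, and the log2 fold change was -2.11 (SE 0.38, 4.31-fold lower, adjusted p = 0.00516, limma). Its 3 probe sets ran from -2.22 to -1.97, and 2 were called over all probe sets. With the 18S block the receptor phosphatase gene Ptprf also fell (-0.50, adjusted p = 0.00501, against -0.60 and 0.280 without it, limma), and 1 of its 3 probe sets was called over all probe sets without the block (adjusted p = 0.0256). The median of the list was -0.22, against 0.00 over all genes.

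In the Akt and mTOR list 1 of 18 rose and 1 fell. Mtor, the growth kinase, rose with a log2 fold change of 0.55 (SE 0.14, adjusted p = 0.0418, limma), and Rheb, the small GTPase that activates it, fell by 0.52 (SE 0.14, adjusted p = 0.0462). Both calls were narrow, holding in 3 and 2 of 9 fits with 1 array left out, and the probe set of Mtor with the largest variance stood at -0.30. Akt1 was at 0.00 (SE 0.14, adjusted p = 0.992, limma). Among 11 Akt substrates and their partners, Gys2, liver glycogen synthase (0.49, SE 0.13, adjusted p = 0.0419), and Crtc2, a coactivator of gluconeogenic genes (0.97, SE 0.26, adjusted p = 0.0467, limma), rose. Each of these calls held in 2 of 9 fits with 1 array left out. Eif4ebp1, a translation repressor that mTOR inhibits, fell with the 18S block (-0.69, adjusted p = 0.00524, limma). The medians of these lists were 0.17 and 0.12.

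Among 11 insulin-repressed genes other than Igfbp1 and Irs2, 1 rose and none fell (median 0.18), and with the 18S block 2 rose. This was G6pc, with 13.93, 14.17, 13.71 and 13.93 on db/db arrays and 12.68, 12.99, 13.37, 11.95 and 11.77 on BKS arrays. All db/db arrays lay above all BKS arrays, and the log2 fold change was 1.38 (SE 0.27, 2.61-fold, adjusted p = 0.00884, limma). As with Igfbp1, BKS 4 and BKS 5 were the lowest, but here the low 18S arrays also differed (1.04 low, 1.96 high), and the interaction did not pass (0.92, SE 0.27, adjusted p = 0.628). Ppargc1a, a coactivator of gluconeogenic genes, was the other gene that rose with the block (0.74, adjusted p = 0.0377, against 0.71 and 0.0907 without it, limma), and its db/db arrays all lay above its BKS arrays. Pck1, the other classic gluconeogenic target, was at 0.18 (SE 0.18, adjusted p = 0.689, limma), while its 3 probe sets ran from -0.01 to 1.30 and the one at 1.30 was called over all probe sets (adjusted p = 0.0180).

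Among 11 insulin-induced genes of liver, 5 rose and 1 fell, with a median of 0.78. With the 18S block Angptl8, a secreted regulator of lipoprotein lipase, also rose (0.87, adjusted p = 0.00578, limma). The elongase gene Elovl6 (2.10, SE 0.25, adjusted p = 2.64e-04), the lipogenic regulator Thrsp (1.09, SE 0.18, adjusted p = 0.00242) and Bhlhe40, a transcriptional repressor (0.98, SE 0.17, adjusted p = 0.00362, limma), had the smallest p among the rises. The lipogenic enzyme genes Acaca (1.10, adjusted p = 0.00730) and Fasn (1.17, adjusted p = 0.0166, limma) rose too. For Fasn the groups overlapped, with the lowest db/db array at 13.30 and the highest BKS array at 13.34. Both were also called with the 18S block, but they were not followed through the other alternatives. Egr1, an immediate-early transcription factor gene, fell by 3.14 (SE 0.38, 8.82-fold lower, adjusted p = 2.76e-04, limma), with 7.61 to 9.33 on db/db arrays and 10.80 to 12.30 on BKS arrays. Srebf1, the lipogenic transcription factor gene, was at 0.18 (SE 0.25, adjusted p = 0.788, limma). The insulin-repressed gene G6pc and 5 insulin-induced genes were thus higher in db/db livers, while the insulin-induced Egr1 was lower. In the same fit 10 insulin-repressed and 5 insulin-induced genes were not called. Whether either list moved as a whole was not tested.

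Of 9 other genes of insulin-like growth factors and their binding proteins 3 passed, against 5.49% of all genes. Igfbp2 stood at 11.58, 12.70, 11.54 and 12.97 on db/db arrays and at 13.72, 13.80, 13.99, 14.08 and 14.10 on BKS arrays. Every db/db array was lower and the BKS arrays were close together, and it fell by 1.74 (SE 0.26, adjusted p = 0.00141, limma). Igfbp3, the main carrier of these growth factors in blood, rose by 1.13 (SE 0.24, adjusted p = 0.0130) and Igfbp5 by 1.44 (SE 0.34, adjusted p = 0.0231, limma). The call of Igfbp3 was lost without db/db 3 (adjusted p = 0.0525), and that of Igfbp5 held in 5 of 9 such fits.

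**Figure D4:**
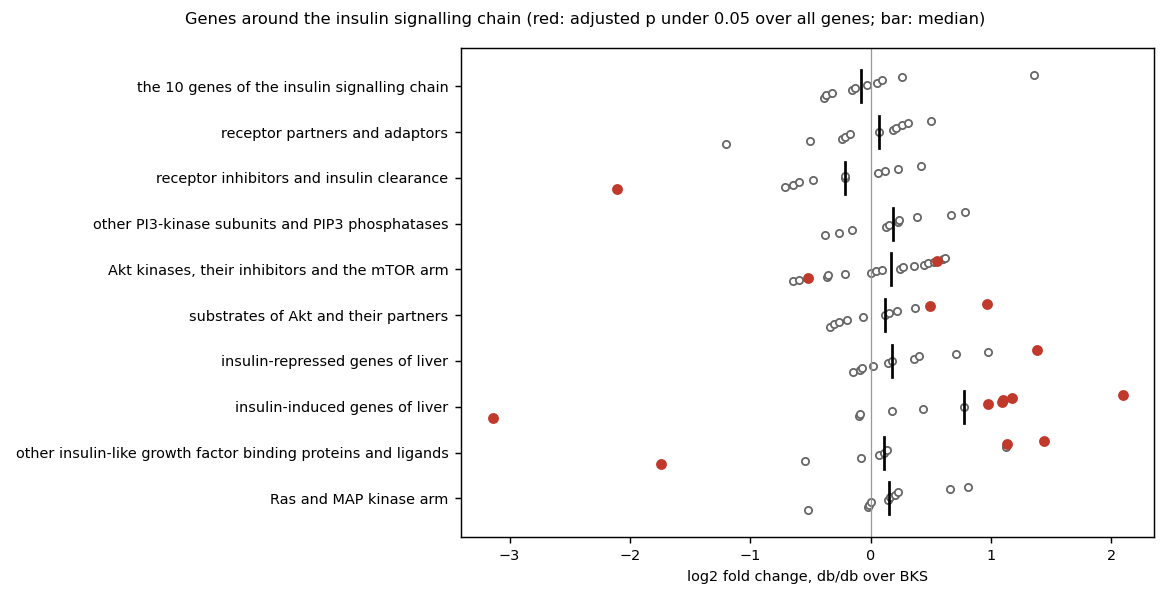
Log2 fold change of db/db over BKS for each measured gene of the 10-gene chain and of the 9 surrounding lists, with the list's median as a bar. Red points passed (adjusted p under 0.05 over all genes); the chain has none, and the red points lie among inhibitors, the mTOR arm, Akt substrates, insulin-responsive genes and growth factor binding proteins.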

How the data were processed

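Total liver RNA was labelled with biotin and hybridised to single-colour Affymetrix arrays, per the labels' protocols. The authors deposited 1 linear intensity per probe set and array, with software, background correction and scaling not given in the sources used here. Each array's 2% trimmed mean lay between 500.003 and 500.005. The table has no detection calls. No arrays were identical.

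Intensities were transformed as log2(value + 16), which compresses fold changes of dim genes, then quantile normalized (limma 3.58.1, R 4.3.3). Of 45101 probe sets, 34945 had 1 gene symbol in GEO's platform annotation, 932 several, 9160 none, and 64 were controls. A gene was given by its probe set with the highest mean (18193 genes, no filter). Listed genes with no probe set of their own symbol were not analysed here. Two-sided limma tests (lmFit, eBayes with trend, group only) were run over all genes and over all 45037 probe sets, each with Benjamini-Hochberg adjustment at 0.05. "Rose" and "fell" refer to calls over genes. Steps were tested on simulated data. Differences between probe sets of a gene were fitted without a trend.

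The 18S split was made at the largest gap of the mean control signal. Equal replicate numbers were not taken as pairs. Alternatives were median centring, no normalization, other pseudocounts, a filter on dim genes, other probe set rules, other eBayes settings, array weights, the replicate number or the 18S split as a block, each 18S set alone, and each array left out. The interaction, the differences between probe sets and the 18S effect were added after seeing the data.

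The genes named are the 10, Lepr, Foxo1, Akt1, Srebf1, G6pc and Pck1, up to 3 called genes per direction of each list or the smallest p where none was called, and, added after their values were seen, the genes whose call changed with the 18S block and Acaca and Fasn, and the 3 nearest profiles of Igfbp1 and Irs2. Cell type markers are named besides these. The members and lists were chosen with earlier results of these data known. Promoter letters and gene positions are from RefSeq (GRCm38.p6).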

Additional observations from a re-analysis of the deposited data

Results flagged for a closer look

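The genotype effect of Igfbp1 differed between the 2 sets of arrays by 4.04 on the log2 scale, as given above.

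Single arrays stood apart by Dixon's ratio in 5 of 102 groups tested, and chance alone gives about 1 in 20. BKS 1 was at 7.21 for probe set 1421324_a_at of Akt2, with the next BKS array at 8.74. For probe set 1451737_at of Pik3r1, db/db 4 was at 8.63 and the next db/db array at 9.36. For Pik3ca, db/db 2 was at 9.68 with the next at 9.59, a gap that stands out only because the db/db arrays are so close together. Thrsp was at 14.29 on BKS 5 with the next at 13.64, and Nras at 9.32 on db/db 4 with the next at 8.95.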

How the results depend on the processing

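None of the 10 genes was called with another scaling, pseudocount, brightness filter, probe set rule, variance model, block or array left out, nor in the low 18S arrays alone. In the high 18S arrays alone 1 was called, Igfbp1. The brightness filter left Irs2 out. The count of called probe sets among the 30 was 1, and it was 0 without the intensity trend, 0 with the replicate block, 0 in the low 18S arrays alone, 2 with the 18S block, and 0 to 2 with 1 array left out. With the high 18S arrays alone it was 1 as well, but this was Igfbp1, and 1451020_at of Gsk3b was lost (0.87, adjusted p = 0.373, limma).

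Over all genes 999 were called, against 535 with median centring, 630 with the probe set of largest variance, 466 without the trend, 436 with the low and 465 with the high 18S arrays alone, and 592 (without db/db 3) to 929 with 1 array left out. Over all probe sets 1251 were called, against 666 with median centring, 388 without the trend, 2189 with the 18S block, 531 with the low and 660 with the high 18S arrays alone, and 707 to 1197 with 1 array left out. Besides the calls described as narrow, some were lost in single settings (limma), with Acaca and Fasn not followed. Without the trend G6pc was lost (adjusted p = 0.0628). With median centring Thrsp was lost (0.108), and with the probe set of largest variance Socs3 (0.135) and Igfbp5 (0.242). Igfbp5 was also lost without the trend (0.0819). With the low 18S arrays alone Socs3 (0.112) and Igfbp3 (0.1999), and with the high ones alone Thrsp (0.108), Bhlhe40 (0.185), Igfbp2 (0.0544), Igfbp3 (0.0949) and Igfbp5 (0.379), did not pass. The sign of Mtor turned to -0.30 with its probe set of largest variance. The causes were not tested.

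The replicate numbers are shared by 4 pairs, whose deviations correlated at 0.03, 0.17, -0.07 and 0.13, so they were not taken as pairs. With the replicate block 1146 genes and 1504 probe sets were called, and the calls of Crtc2 and of probe set 1451020_at of Gsk3b were lost (adjusted p = 0.0598 and 0.0549, limma). Signal over background cannot be judged without detection calls, which limits Irs2 and the dim probe sets most.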
